A study of Bos taurus with 30 samples.

Results

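Immediate early genes are transcribed within minutes of a stimulus such as a growth factor, a stretch or a stress, without the need for newly made protein, and their transcripts are short-lived. Signals through the MAP kinases reach factors already sitting on their promoters, and the products are either transcription factors that start the next wave of genes or brakes that shut the signal down. The genes described here are 10 members of this class: the zinc-finger transcription factors EGR1, EGR2 and EGR3, the orphan nuclear receptors NR4A1 and NR4A2, the immediate early response genes IER2 and IER3, the MAP kinase phosphatase DUSP1, the RNA-binding protein ZFP36 and the transcription factor MYC. They were found by symbol among 35092 genes of the count table, and all 10 passed the filter on low counts in every comparison. The genes were chosen from earlier results of these libraries in which immediate early genes were often lower in embryos produced in vitro, so their differences between the procedures are given as a description, without a test.

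The libraries come from bovine conceptuses flushed from the uterus on day 15, when the trophoblast elongates and the disc begins gastrulation. In vitro produced (IVP) embryos came from slaughterhouse oocytes that were matured, fertilised and cultured without serum and then transferred to recipient cows as blastocysts, and in vivo (IVV) embryos came from superovulated, inseminated Holstein donors, with semen of the same bull used for both. The embryonic disc (ED), which holds the epiblast, and pieces of the surrounding extra-embryonic membranes (EEM) were frozen separately. There were 7 IVP and 9 IVV libraries of the ED and 6 IVP and 8 IVV libraries of the EEM, from 17 embryos, of which 13 (5 IVP and 8 IVV) gave both tissues. No group is labelled with a genetic change. The donors received FSH to superovulate, both donors and recipients received hormones to time oestrus and ovulation, and epidural xylazine was given at flushing and, to recipients, at transfer, so hormone treatment also differed between the procedures. The IVV embryos came from few donor cows, the IVP embryos from oocytes of an unstated number of cows and were carried by few recipients, the labels do not tie an embryo to its cow, and effects of the cow and of the procedure cannot be told apart. The labels give neither the sex nor the morphology of an embryo. The paper reports that the IVP embryos were on average shorter than the IVV embryos. It also reports that a disc was found in a smaller share of the recovered IVP embryos. Effects of conceptus size and of the procedure cannot be told apart.

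Each library held 48713218 to 63037371 counts on genes, and the 10 most abundant genes took 9.14% to 18.8% of a library. Values are CPM (a gene's share of the library's counts, scaled to a common total) after TMM normalization and are compared within a gene only. NANOG, a pluripotency factor of the epiblast, lay between 2.75 and 43.9 CPM in the ED and at no more than 0.195 CPM in the EEM. KRT8, a keratin of the trophoblast, reached 4230 to 30000 CPM in the ED and 10200 to 32900 CPM in the EEM. The sum of all 17 trophoblast markers was 12100 to 65800 CPM in the ED and 29700 to 67300 CPM in the EEM, with none at the floor of 3 counts or fewer in either tissue, and HAND1 of this list was called lower in the EEM (log2 difference -2.39, SE 0.38, adjusted p = 9.09e-05 in edgeR). Of the maternal markers, SERPINA14 of the uterus and SLC4A1 of red cells were at or under 3 counts in every library. PTPRC of leukocytes reached 64 counts in an IVV disc and 0 in the IVP discs, while HBB of red cells reached 4 in an IVP disc and 0 in the IVV discs. Of 12 blood markers 3 were tested in the ED, all 3 with fitted values below 0 in IVP discs. Of these, 1 was called lower, against 4.95% of all genes: CD74, of antigen-presenting cells (-1.87, SE 0.47, adjusted p = 0.0176 in edgeR). The summed blood list reached 43.7 CPM and the summed uterus list 44.8 CPM, both highest in the ED of IVV embryos. Of 7 uterus markers tested in the ED, 1 was called higher in IVP embryos, the mucin MUC1 (log2 fold change 1.10, SE 0.27, adjusted p = 0.0162 in edgeR). Another 1 was called lower, MSX1 (-1.94, SE 0.30, adjusted p = 0.000229), and 3 fitted values were above 0 and 4 below. Between tissues, MSX1 was lower in the EEM than in the ED (log2 difference -2.37, SE 0.30, adjusted p = 7.32e-06 in edgeR). Whether its transcripts were maternal was not tested. All 9 epiblast markers tested had fitted values below 0 in IVP discs (median log2 fold change -0.37). Of 17 trophoblast markers 15 had values above 0 (median 0.32), beside a median of -0.01 over all genes. In the EEM, 7 of 8 epiblast, 10 of 17 trophoblast, 8 of 11 hypoblast and 4 of 5 uterus markers had values above 0. Their medians were 0.39, 0.06, 0.12 and 0.90, beside 0.00 over all genes. Called there were LIN28B of the epiblast (1.10, adjusted p = 0.0159 in edgeR) and TTR of the hypoblast (-7.26, adjusted p = 3.20e-05), TTR being at the floor in IVP membranes. The part of these cells in the results, the lower EGR1 and NR4A1 of IVP discs included, was not tested. Transcripts of the 13 mitochondrial genes took 1.02% to 15.2% of a library, with ED medians of 5.73% (IVP) and 3.72% (IVV) and EEM medians of 6.5% (IVP) and 3.26% (IVV). The highest shares, 15.2% in the ED and 13.9% in the EEM, belonged to a single IVV embryo, VE19.

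EGR1, which couples growth factor and stress signals to transcription, set IVP and IVV membranes apart most clearly. In the EEM it lay between 170 and 709 CPM in the 8 IVV libraries (median 386) and between 25.5 and 159 CPM in the 6 IVP libraries (median 63.2). Every IVP library was therefore below every IVV library, and the mean of 402 ± 174 CPM (SD, n = 8) in IVV embryos was 4.94 times the mean of 81.4 ± 53.5 CPM (SD, n = 6) in IVP embryos. EGR1 was the only member of the 10 with such a gap in the EEM, where 0.374% of all genes tested had one. The fitted log2 fold change was -2.27 with a standard error of 0.30. In the ED the same gene ran from 83.3 to 671 CPM in the 9 IVV libraries (median 225) and from 29 to 180 CPM in the 7 IVP libraries (median 97.4). Here the groups overlapped, with 6 of 9 IVV libraries above all IVP libraries and 3 of 7 IVP libraries below all IVV libraries, and the log2 fold change was -1.29 (SE 0.39). No member had fully separate groups in the ED, against 0.718% of all genes. In bulk tissue, fewer cells of a type and less RNA per cell cannot be told apart. By group median, EGR1 decreased in the order EEM of IVV, ED of IVV, ED of IVP and EEM of IVP, and the ranges of each neighbouring pair in that order overlapped.

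EGR2, which acts in hindbrain segmentation and myelination, was low throughout. Its EEM libraries spanned 2.64 to 26.1 CPM in IVV embryos (median 7.9) and 2.12 to 9.01 CPM in IVP embryos (median 3.85), and 3 of 6 IVP libraries lay below all IVV libraries. The log2 fold change in the EEM was -1.01 (SE 0.28). In the ED the medians were almost the same, 6.39 CPM in IVV embryos (range 1.75 to 21.7) and 6.35 CPM in IVP embryos (range 1.65 to 10.2), and the log2 fold change of -0.22 (SE 0.46) was 0.06 without IVPF14 and -0.89 (SE 0.38) with only the embryos of both tissues. EGR3, a close relative of EGR2, was the scarcest member, with 9 to 131 counts per library. In the EEM it ranged from 0.212 to 1.45 CPM (IVV, median 0.612) and from 0.18 to 1.14 CPM (IVP, median 0.46), and in the ED from 0.396 to 2.33 CPM (IVV, median 0.945) and from 0.27 to 1.61 CPM (IVP, median 0.765). Within each tissue the ranges of the procedures overlapped widely, and its log2 fold changes were -0.45 (SE 0.48) in the EEM and -0.41 (SE 0.42) in the ED. Without VE28 these values were -0.09 and -0.11. The EEM value was -0.80 without IVP11, and the ED value -0.67 with only the embryos of both tissues.

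**Figure D1:**
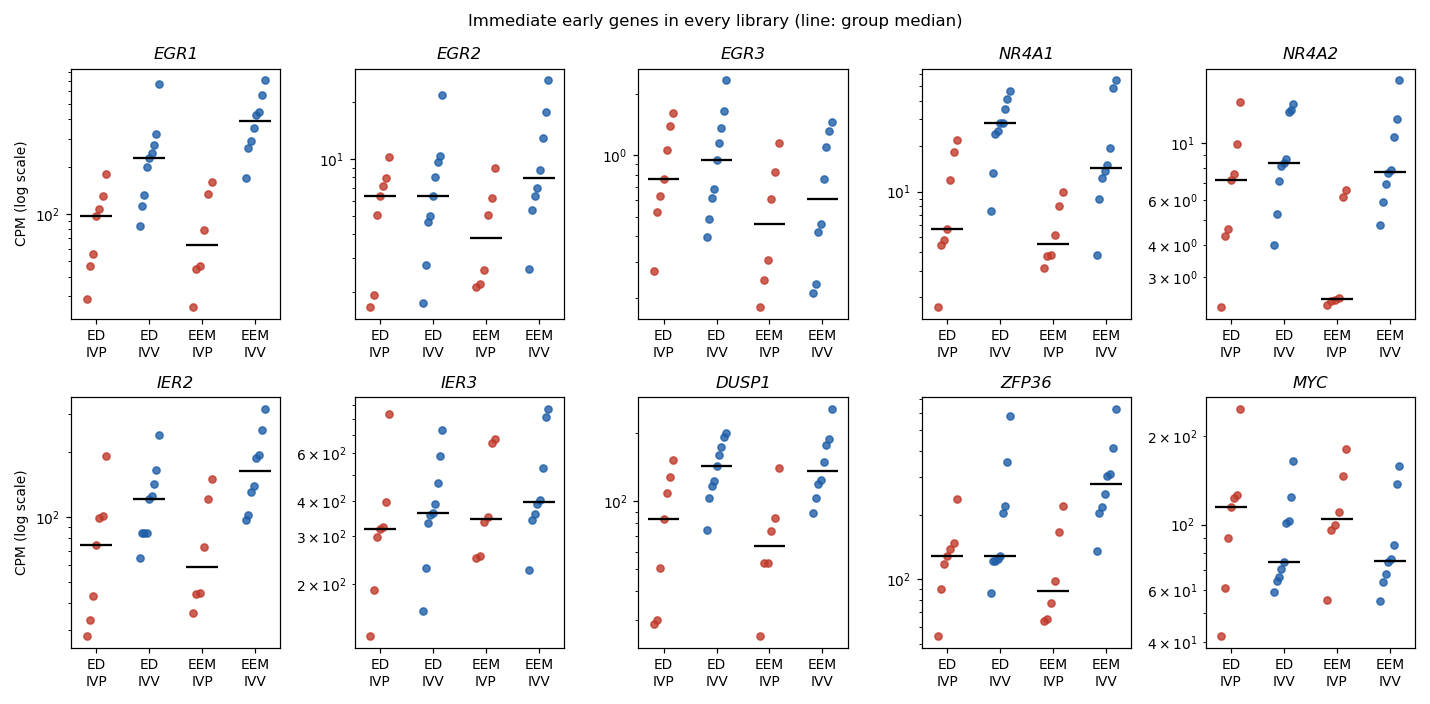
Level of each of the 10 immediate early genes in CPM (y axis, log scale, set for each gene) in every library, grouped along the x axis by tissue and procedure, with a line at the group median and red for IVP and blue for IVV. EGR1 in the EEM is the only panel and tissue in which all IVP points (25.5 to 159 CPM) lie under all IVV points (170 to 709 CPM), while IER3 and MYC overlap widely.

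The nuclear receptor NR4A1, which binds DNA without a known natural ligand, was lower in IVP embryos in both tissues. In the ED it lay between 7.4 and 46.2 CPM in IVV embryos (median 28.6) and between 1.72 and 21.8 CPM in IVP embryos (median 5.66). Of the 9 IVV libraries 7 were above every IVP library, and the log2 fold change was -1.86 (SE 0.38). In the EEM the IVV libraries ran from 3.82 to 54.7 CPM (median 14.3) and the IVP libraries from 3.13 to 9.97 CPM (median 4.49). The IVV libraries of the EEM spread widely: VE4 (54.7 CPM) and VE28 (48.2 CPM) stood at the top and VE19 (3.82 CPM) and VE29 (8.91 CPM) within the IVP range, so 6 of 8 IVV libraries were above all IVP libraries. The log2 fold change was -1.97 (SE 0.46), and -1.34 without VE28. NR4A2, its relative best known from dopamine neurons, differed mainly in the EEM. There it spanned 4.8 to 17.7 CPM in IVV embryos (median 7.75), while 4 of the 6 IVP libraries sat together between 2.32 and 2.49 CPM, below all IVV libraries. The other IVP libraries, of IVP11 and IVPF14, reached 6.58 and 6.15 CPM. In the ED the ranges of 4.01 to 14.3 CPM in IVV embryos and 2.28 to 14.5 CPM in IVP embryos were nearly alike. The log2 fold changes of NR4A2 were -1.23 (SE 0.32) in the EEM and -0.44 (SE 0.33) in the ED.

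IER2, a small nuclear protein induced by growth factors, was lower in the EEM of IVP embryos, at 36.1 to 151 CPM (median 58.8), than in that of IVV embryos, at 97.6 to 317 CPM (median 164). The groups overlapped through IVP11 and IVPF13, and 4 of 6 IVP libraries were below all IVV libraries. The log2 fold change was -1.13 (SE 0.26). In the ED the ranges were 28.2 to 192 CPM in IVP embryos (median 74.6) and 64.9 to 239 CPM in IVV embryos (median 121), with a log2 fold change of -0.54 (SE 0.31). IER3, which modulates cell survival, had closer medians. Its EEM medians were 345 CPM in IVP embryos (range 249 to 678) and 398 CPM in IVV embryos (range 225 to 870), and its ED medians 317 CPM (range 129 to 836) and 363 CPM (range 160 to 731). The log2 fold changes of IER3 were -0.10 (SE 0.22) in the EEM and -0.15 (SE 0.21) in the ED, and the ED value was -0.58 (SE 0.27) without IVP11, which held the highest level of IER3 in that group.

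DUSP1 and ZFP36 brake the response they belong to. DUSP1 removes the activating phosphates of p38, JNK and ERK, and its level in the EEM was 25.3 to 140 CPM in IVP embryos (median 63.7) and 88.8 to 257 CPM in IVV embryos (median 137). All IVP libraries of the EEM but that of IVP11 were below all IVV libraries, with a log2 fold change of -1.03 (SE 0.28). In the ED it ran from 28.6 to 152 CPM in IVP embryos (median 83.7) and from 74.4 to 201 CPM in IVV embryos (median 143), with a log2 fold change of -0.79 (SE 0.32). ZFP36, which binds AU-rich elements and sends short-lived mRNAs, including those of cytokines, to decay, lay between 63.7 and 220 CPM in the EEM of IVP embryos (median 88) and between 136 and 627 CPM in that of IVV embryos (median 278). Only IVP11 and IVPF13 reached into the IVV range, and the log2 fold change was -1.31 (SE 0.24). In the ED both medians were 129 CPM, with ranges of 54.1 to 237 CPM in IVP embryos and 85.9 to 583 CPM in IVV embryos. The log2 fold change in the ED was -0.55 (SE 0.31).

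MYC, which drives growth and ribosome production, was the single member with a fitted difference in the other direction. It ran from 55.3 to 181 CPM in the EEM of IVP embryos (median 105) and from 55.2 to 158 CPM in that of IVV embryos (median 75.4). In the ED the ranges were 41.8 to 247 CPM (median 115) and 58.9 to 164 CPM (median 74.9). The groups overlapped almost fully in both tissues, and the log2 fold changes were 0.42 (SE 0.22) in the EEM and 0.32 (SE 0.23) in the ED. The ED value rested on the library of IVP11, the highest of its group, and was -0.03 without that embryo.

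**Figure D2:**
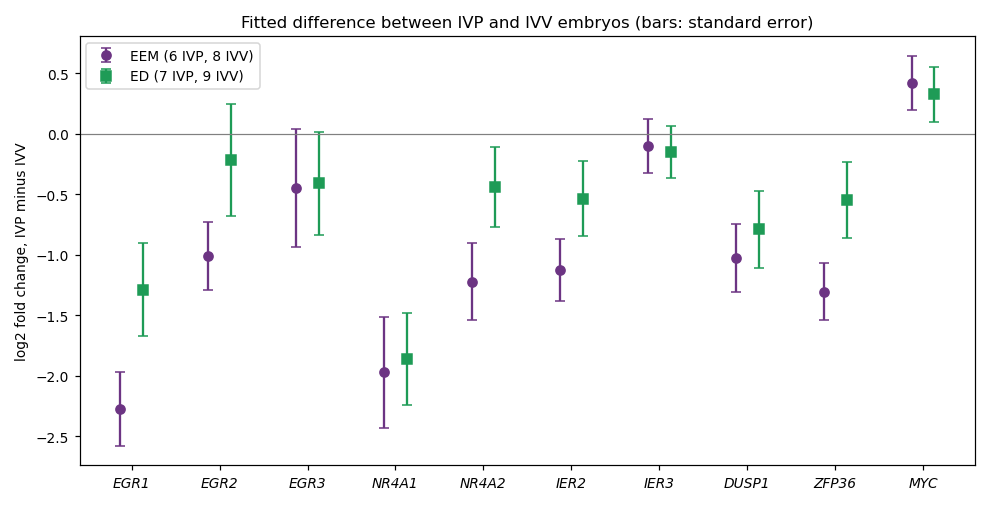
Fitted log2 fold change of IVP against IVV embryos (y axis) for each gene (x axis), in the EEM (circles, 6 IVP and 8 IVV libraries) and the ED (squares, 7 IVP and 9 IVV libraries), with bars of 1 standard error. NR4A1 is about as low in both tissues (-1.97 and -1.86), EGR1, EGR2, NR4A2, IER2 and ZFP36 lie lower in the EEM than in the ED, and MYC lies above 0 in both.

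Counted over the set, 7 of the 10 members had an adjusted p under 0.05 and were lower in IVP embryos in the EEM (EGR1, EGR2, NR4A1, NR4A2, IER2, DUSP1 and ZFP36), where 1.52% of all genes tested were, and 0 were higher, against 2.29% of all genes. In the ED, 2 of 10 were lower (EGR1 and NR4A1), against 4.95% of all genes, and 0 were higher, against 1.4%. Because the members were chosen on this contrast, these counts describe the choice and carry no test. The median log2 fold change of the members was -1.08 in the EEM and -0.49 in the ED, beside 0.00 and -0.01 over all genes tested. The EEM count fell to 3 (EGR1, IER2 and ZFP36) without VE28 and to 4 without IVP10, IVP14 or VE5, and over all 25 settings tried EGR1 and ZFP36 were called in 25, IER2 in 24, NR4A1 in 23, NR4A2 in 19, DUSP1 in 15 and EGR2 in 9. EGR2 was not called with 0 or 2 surrogate variables, with limma voom, with a minimum of 10 counts in all libraries or with halved counts. In the ED, NR4A1 was called in all 27 settings and EGR1 in 16, and DUSP1 joined them when IVP11 was left out. With only the embryos of both tissues, the ED values of IER2 (-0.97), NR4A2 (-0.81), DUSP1 (-1.16) and ZFP36 (-0.92) lay further from 0 than over all discs, as did IER2 without IVP11 (-0.99). Other ED values lay nearer: IER2 at -0.33 and DUSP1 at -0.62 without IVPF14, NR4A2 at -0.27 without IVP14 and ZFP36 at -0.36 without VE24. Whether the difference between procedures was larger in the EEM than in the ED was not tested.

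The comparison of the tissues was not a measure that the choice of the genes used, although the choice used the same libraries. The p-values between tissues may therefore not be fully independent of that choice. The comparison asked whether membranes and disc of the same embryo differ in these transcripts. It used the 26 libraries of the 13 embryos with both, with embryo as a block in edgeR's quasi-likelihood test. None of the members passed: 0 of 10 were higher and 0 of 10 lower in the EEM at an adjusted p under 0.05, while 8.16% of all genes tested were higher and 12.8% lower. At an unadjusted p under 0.05 there were 3, as for 34.2% of all genes, and DESeq2 and limma voom with the same block also called 0. These were IER2, at a log2 difference of 0.32 (SE 0.12, adjusted p = 0.0623 in edgeR), ZFP36, at 0.31 (SE 0.13, adjusted p = 0.114), and IER3, at 0.26 (SE 0.12, adjusted p = 0.118), each with its fitted value above 0, that is toward the EEM. The other values were 0.35 (SE 0.22) for EGR1, 0.19 (SE 0.16) for EGR2, -0.55 (SE 0.32) for EGR3, -0.29 (SE 0.20) for NR4A1, -0.12 (SE 0.21) for NR4A2, 0.08 (SE 0.14) for DUSP1 and -0.07 (SE 0.09) for MYC. The median of the members was 0.14, beside 0.08 over all genes. The count depended on single embryos, since 3 members (EGR1, IER2 and ZFP36) were called higher in the EEM without IVP10 and 2 (IER2 and IER3) without IVP11.

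**Figure D3:**
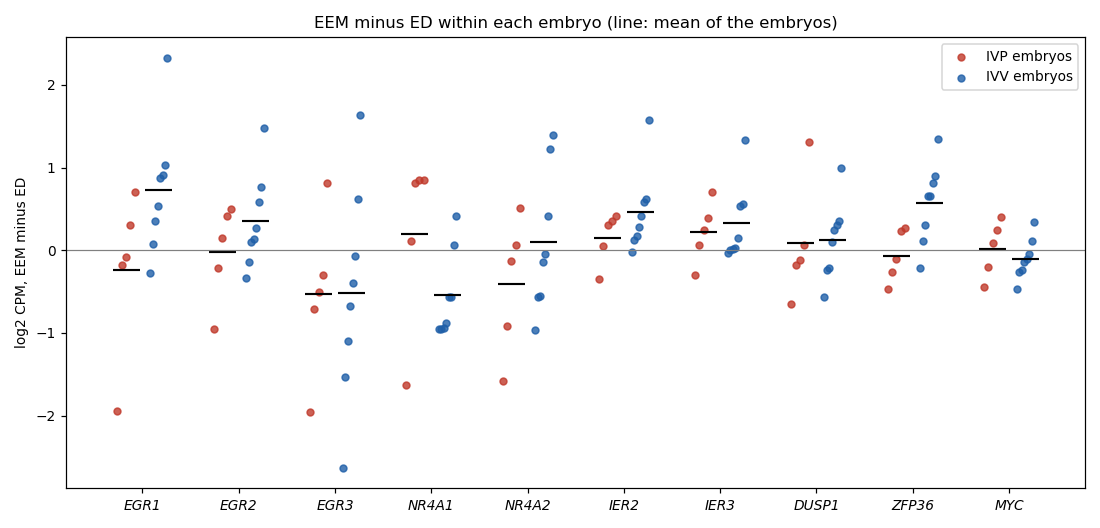
Difference in log2 CPM between the EEM and the ED of the same embryo (y axis; above 0, higher in the EEM) for each gene (x axis), with red points for 5 IVP embryos, blue points for 8 IVV embryos and a line at each mean. EGR1 and ZFP36 are higher in the EEM in 7 of 8 IVV embryos and in 2 of 5 IVP embryos, and NR4A1 is higher in the EEM in 2 of 8 IVV and 4 of 5 IVP embryos.

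Within single embryos the tissue difference took other values in the 2 procedures for part of the set. EGR1 was higher in the EEM than in the ED in 7 of 8 IVV embryos, with a mean log2 difference of 0.73 ± 0.785 (SD, n = 8), and in 2 of 5 IVP embryos, with a mean of -0.236 ± 1.02 (SD, n = 5). The low IVP mean owed much to IVP10, whose disc held 180 CPM, the most of any IVP disc, and whose membranes held 47 CPM. ZFP36 was likewise higher in the EEM in 7 of 8 IVV and 2 of 5 IVP embryos. NR4A1 went the other way, higher in the EEM in 2 of 8 IVV embryos (mean -0.545 ± 0.52) and in 4 of 5 IVP embryos (mean 0.198 ± 1.07). IER2 and IER3 were higher in the EEM in 4 of 5 IVP embryos. Of 8 IVV embryos, IER2 was higher in the EEM in 7 and IER3 in 6. The count for IER3 leaves out VE24, almost equal at 391 CPM in the EEM and 390 CPM in the ED. Fitted in the IVV embryos alone, ZFP36 was called higher in the EEM (0.49, SE 0.15), where 5.96% of all genes were, and NR4A1 lower (-0.62, SE 0.16), where 15.3% were. Fitted in the IVP embryos alone, the values were -0.08 for ZFP36, 0.21 for NR4A1 and -0.23 for EGR1, none of them called. The IVV libraries are part of the contrast that chose the genes, and the difference between procedures in the tissue effect was not tested.

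The agreement of the tissues among IVV embryos was not a measure the choice used, although the choice used the same libraries. For each gene the log2 CPM of the ED was compared with that of the EEM over the 8 IVV embryos with both tissues. NR4A1 followed the embryo most closely, with Pearson's r = 0.94 (two-sided exact permutation p = 0.000248, adjusted over all 14898 genes 0.0195) and Spearman's rho = 0.95 (exact p = 0.00114). It ran from VE19, lowest in both tissues (7.4 CPM in the ED and 3.82 in the EEM), to VE4 and VE28, highest in both (40.8 and 46.2 CPM in the ED, 54.7 and 48.2 in the EEM). MYC followed with r = 0.89 (exact p = 0.00208, adjusted p = 0.0284) and rho = 0.86 (exact p = 0.0107). ZFP36 had r = 0.85 (exact p = 0.00692, adjusted p = 0.0426) and rho = 0.69 (exact p = 0.0694), and EGR2 r = 0.85 (exact p = 0.0096, adjusted p = 0.0489) and rho = 0.74 (exact p = 0.0458). Leaving out the 2 embryos farthest from the median ED level left r = 0.97 for NR4A1, 0.81 for MYC and 0.79 for ZFP36, but 0.33 for EGR2, whose relation rested on VE19 and VE4. The 2 embryos left out were set for each gene, VE19 and VE29 for NR4A1 and MYC and VE19 and VE24 for ZFP36. Adjusted over the 10 correlations, 0 of the 4 calls were left with the 6 remaining embryos of each gene. By rho over all 8 embryos, 1 call was left, NR4A1. With all 8 embryos the same 4 genes were called by r under that adjustment, and 2 were called when VE19 was left out, and 2 when VE4 was. Such agreement was common among all genes: 20.4% were called with a positive r and 40.2% had an unadjusted exact p under 0.05, as did 5 of 10 members, and the median r over all genes was 0.63. An r as high as that of NR4A1 was reached by 3.78% of the genes, and as high as that of ZFP36 by 19.7%.

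The other 6 members did not pass the threshold. IER3 had r = 0.75 (exact permutation p = 0.0274, adjusted p = 0.0845) and rho = 0.69 (exact p = 0.0694), and r = 0.95 without the 2 farthest embryos. IER2 had r = 0.66 (exact p = 0.0761) and rho = 0.69 (exact p = 0.0694), and r = 0.08 without VE19 and VE4. EGR1 had r = 0.54 (exact p = 0.157) and rho = 0.33 (exact p = 0.428), and turned to -0.73 without the same embryos. DUSP1 had r = 0.51 (exact p = 0.193) and rho = 0.52 (exact p = 0.197), and r = 0.62 without the 2 farthest embryos. For NR4A2 r was -0.01 (exact p = 0.985), with rho = -0.17 (exact p = 0.703) and r = 0.34 without the 2 farthest, and for EGR3 r was 0.01 (exact p = 0.981), with rho at 0.00 (exact p = 1) and r = -0.21. With 5 IVP embryos no correlation was computed for them. The title letter of the libraries, whose meaning the labels do not give, was A, among these 8 IVV embryos, in VE19 and VE3 only. Among the 6 IVV embryos with the letter C, r was 0.91 for NR4A1, 0.85 for MYC, 0.72 for ZFP36 and 0.77 for EGR2.

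**Figure D4:**
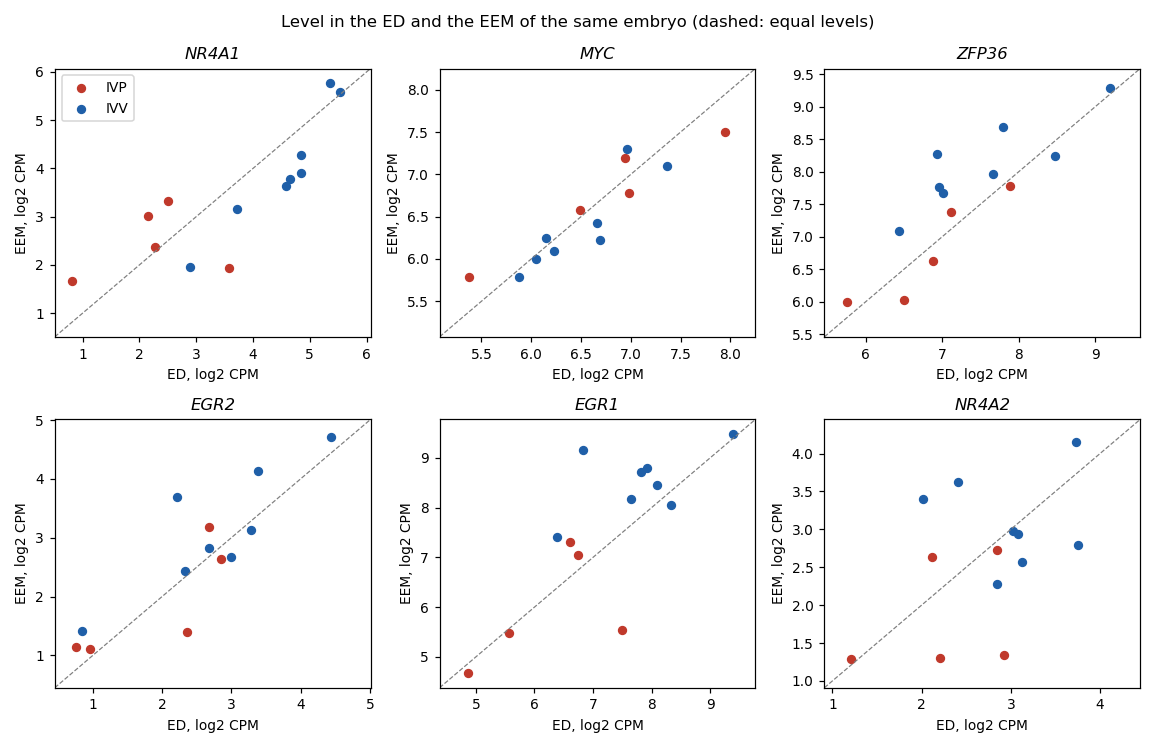
Level in the ED (x axis, log2 CPM) against the EEM (y axis, log2 CPM) of the same embryo for 6 of the genes, with blue points for 8 IVV embryos, red points for 5 IVP embryos and a dashed line of equal levels. NR4A1 and MYC rise together in both tissues over the IVV embryos (r = 0.94 and 0.89), and NR4A2 shows no such order (r = -0.01).

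Across libraries some of the members varied together. Each log2 CPM value was centred on the mean of its tissue and procedure group, and genes were correlated over the 30 libraries, which come from 17 embryos and share depth and scaling between genes, so the values are a description. EGR1, EGR2, IER2 and ZFP36 varied together, with r = 0.84 for EGR1 and EGR2, 0.85 for EGR2 and IER2, 0.83 for EGR2 and ZFP36, 0.81 for IER2 and ZFP36, 0.79 for EGR1 and IER2 and, lowest of the 6 pairs, 0.69 for EGR1 and ZFP36. VE19 held the highest IVV levels of these 4 genes in both tissues, and VE4 the lowest. Without VE19 the first 4 of these pairs gave 0.80, 0.83, 0.78 and 0.78. MYC was joined to them, at 0.74 with ZFP36, 0.65 with IER2, 0.63 with EGR1 and 0.62 with EGR2, and also reached 0.74 with IER3, which was at 0.68 with ZFP36. EGR3 and NR4A1 correlated at 0.72, although EGR3 rests on few counts. NR4A1 had a lower value with EGR1: its r with EGR1 was 0.01, made of -0.53 in the ED and -0.68 in the EEM of IVV embryos and 0.61 in the ED and 0.84 in the EEM of IVP embryos. Without VE19 the value over all groups was 0.32. Of the 45 pairs 40 were above 0, with a median of 0.361.

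**Figure D5:**
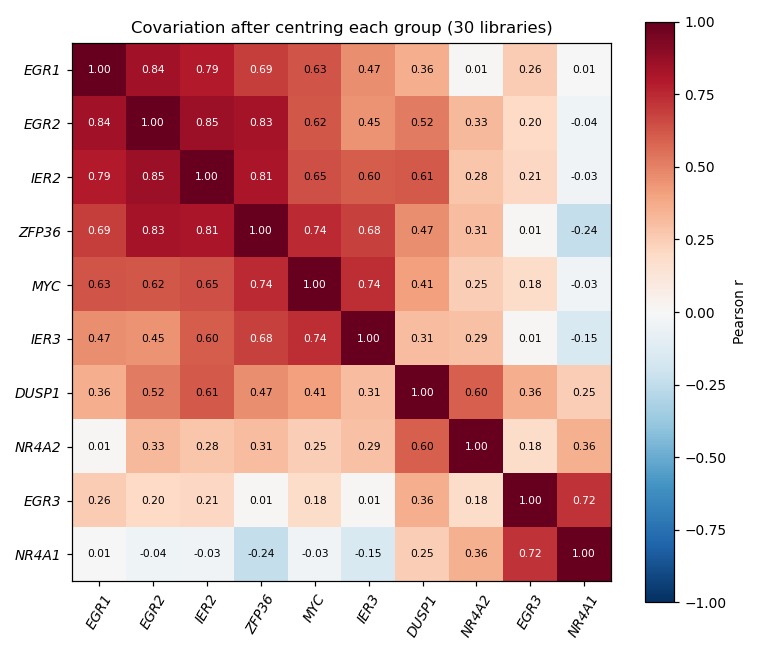
Pearson correlation (colour, from -1 to 1, value in each cell) between each pair of the genes over 30 libraries, after centring log2 CPM on the mean of each tissue and procedure group. EGR1, EGR2, IER2 and ZFP36 form a block with values from 0.69 to 0.85, MYC reaches 0.62 to 0.74 with these 4 genes, and NR4A1 is near 0 with EGR1 (0.01) while it reaches 0.72 with EGR3.

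Measures of the libraries moved with part of the set. The centred mitochondrial share correlated with IER3 at 0.65, with ZFP36 at 0.55, with MYC at 0.52, with EGR2 at 0.45, with IER2 at 0.41, with EGR1 at 0.37 and with DUSP1 at 0.25, and with NR4A2 at 0.00, EGR3 at -0.06 and NR4A1 at -0.21, over the same 30 libraries. Its part in the levels of these genes was not tested. DNAJB1, a heat shock co-chaperone whose relation to the members was looked at after its values were seen, correlated with MYC at 0.84, with EGR1 and EGR2 at 0.61 and with NR4A1 at 0.20. It was also lower in IVP embryos, with medians of 77.9 CPM in the EEM and 74.5 CPM in the ED beside 275 and 175 CPM in IVV embryos. Its part, too, was not tested. The genes whose centred levels followed the mean of the members most closely, among 16679 genes, were ITPKA (0.84), WRAP73, ATF3, JUNB and SOCS3 (each 0.80), LMO1 (0.79), PPP1R35 (0.78), EMC8 and PPP1R15A (each 0.77) and CTU1 (0.76).

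The genes around the set were followed in lists, which were written with earlier results known. Of 9 AP-1 genes tested in the EEM, the FOS and JUN family of immediate early factors, 4 were called lower in IVP embryos, against 1.52% of all genes, and 2 of 10 in the ED, against 4.95%, with 0 higher in either. FOS itself ranged from 306 to 1240 CPM in the EEM of IVV embryos and from 40.7 to 184 CPM in that of IVP embryos, with no overlap, as for 0.374% of all genes. In the ED it ran from 120 to 1120 CPM in IVV embryos and from 37.6 to 96 CPM in IVP embryos, again with none, as for 0.718% of all genes. Of 28 other immediate early genes 11 were called lower in IVP embryos in the EEM and 3 in the ED, and 0 higher. Between tissues, 3 of 9 AP-1 genes were called higher in the EEM, against 8.16% of all genes: FOS by 0.66 (SE 0.19, adjusted p = 0.0157 in edgeR), JUN by 0.84 (SE 0.25, adjusted p = 0.0207) and FOSB by 0.62 (SE 0.20, adjusted p = 0.0300). Of the 28 other immediate early genes 11 were higher, against the same 8.16%, and 1 was lower, against 12.8%, the lower one being ID1, an inhibitor of differentiation factors, at -1.23 (SE 0.26, adjusted p = 0.00170).

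Genes upstream and downstream were counted against the shares of all genes called, which were 1.52% lower and 2.29% higher in IVP embryos in the EEM, 4.95% lower and 1.4% higher in the ED, and 8.16% higher and 12.8% lower in the EEM than in the ED. At these shares, counts of 0 between procedures in lists of this size are near the background. Of 11 serum response and CREB factors and coactivators, which act at the promoters of the class, 0 were called between procedures in either tissue. Between tissues 1 was called, near the background: ELK4, higher in the EEM by 0.64 (SE 0.14, adjusted p = 0.00228 in edgeR). SRF itself had medians of 29.9 CPM in IVV and 36.5 CPM in IVP embryos in the EEM, and of 27.2 and 22.7 CPM in the ED. Of 17 kinases and adaptors of the MAP kinase cascades, most of them of the ERK branch, 0 were called between procedures, and 3 (SOS1, GRB2 and SOS2) were higher in the EEM than in the ED by 0.30, 0.35 and 0.32. Among the partners of the EGR and NR4A proteins, NAB2, a corepressor that EGR factors bind, was called higher in IVP embryos in the EEM. It lay there between 0.521 and 3.69 CPM in IVP embryos and between 0.054 and 2 CPM in IVV embryos, a low level with overlapping groups. Of 14 genes of the MYC network and 11 of the ZFP36 family and mRNA decay, 0 were called in any of the 3 comparisons.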

How the data were processed

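Poly(A) RNA of single ED and EEM pieces was sequenced. Per the labels and the study's methods, the authors filtered the reads, used STAR 2.7.0b with the ARS-UCD1.3 assembly, and obtained gene counts from featureCounts (Subread 2.0.3). The deposited values are raw counts for 35092 gene IDs. The libraries were not stranded, so a gene and an antisense or overlapping partner cannot be told apart. RefSeq symbols (assembly ARS-UCD2.0) matched 31630 IDs, and no positions were used.

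Counts were analysed in R 4.3.3 with edgeR 4.0.16: TMM scaling, filterByExpr with at least 10 counts, the quasi-likelihood test, and Benjamini-Hochberg adjustment over all genes tested, with a threshold of 0.05. IVP and IVV embryos were compared within a tissue with 1 surrogate variable from svaseq (sva 3.50.0), and tissues with embryo as a block, because both pieces came from 1 embryo. The p-values measure the spread between these embryos. Log2 CPM used a prior count of 2. The correlations used all orders of the embryos and were adjusted over the genes of the tissue fit, which was added after seeing the data.

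Members, lists and rules were chosen with earlier results of these data known. All members were named, and from other lists at most 3 genes with the smallest p between tissues, while SRF and the tissue markers outside this rule were picked after their values were seen. Depth was 48713218 counts per library or more, and EGR3 had the fewest counts of the members, 9 to 131. Its standard error was the largest of the members between procedures in the EEM (0.48) and between tissues (0.32). Between procedures in the ED that of EGR2 was the largest (0.46, beside 0.42 for EGR3). No 2 libraries were identical. Alternatives were DESeq2 1.42.0, limma 3.58.1 voom, other scalings, filters, surrogate variables and subsets, halved counts, and each embryo left out. Counts were halved because both mates of a read pair may have been counted, which was not settled. Scripts were tested on simulated data.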

Additional observations from a re-analysis of the deposited data

How the results depend on the processing

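Between tissues, 0 members were called with the embryo block and 0 without the block, where 1553 genes were called in place of 3124 and 1828 genes were called under a minimum of 10 counts in all libraries, and 488 in IVP embryos alone. In IVV embryos alone, 1 member was higher and 1 lower. Leaving out each embryo gave 0 to 3 members higher and 0 lower. Of 219 alternative values of single members, 204 kept their direction and side of the threshold, 7 passed it and 8 reversed. In IVP embryos alone EGR1 (-0.23), EGR2 (-0.0357), NR4A1 (0.21), ZFP36 (-0.0837) and MYC (0.00222) reversed, as did NR4A2 in IVV embryos alone (0.0114). NR4A2 ran from -0.23 to 0.0119 (without IVPF13) and DUSP1 from -0.00971 (without IVPF14) to 0.16 as each embryo was left out.

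Between procedures, 489 of 499 values stayed within 1 SE and 10 moved further. The EEM count of 7 was 4 with no surrogate variable and 3 to 7 with each embryo left out, and the 561 genes called were 1211 with no filter and 275 under that minimum. The ED count of 2 was 1 with 2 surrogate variables, with the title letter as a term and with only the embryos of both tissues, and 1 to 3 with each embryo left out, and the 998 genes called were 1846 with no filter, 431 under that minimum and 1512 with DESeq2. The 4 correlated members, here adjusted over the 10 correlations as first set, were 1 by Spearman's rho and 0 without the 2 embryos farthest from each gene's median. They were 2 with the letter C only (a subset chosen after seeing the data) and 2 to 5 with each embryo left out. The cause of these changes was not tested. Of 40 groups of member values, 0 held a sample far from the others by Dixon's criterion.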

Other observations

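Of 15 genes in or around the feedback on MAP kinase signals, most of them inhibitors, 6 fell in the EEM compared to the ED. All 15 had a fitted value below 0 for EEM minus ED, with a median log2 difference of -0.41 beside 0.08 over all genes, and the 6 were called in edgeR, where 12.8% of all genes were lower, with 0 called higher. ETV5, an ETS factor downstream of FGF signals, was lower by a log2 difference of -1.99 (SE 0.21, adjusted p = 6.49e-07), DUSP10, a phosphatase of p38 and JNK, by -2.83 (SE 0.38, adjusted p = 1.29e-05) and SPRY2, a Sprouty inhibitor, by -0.99 (SE 0.14, adjusted p = 1.88e-05). Between IVP and IVV embryos 0 of the 15 were called in the EEM and 0 in the ED, near the background for a list of this size. Of all genes, 1.52% were called lower and 2.29% higher in IVP embryos in the EEM, and 4.95% and 1.4% in the ED.

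Of 12 heat shock genes, 3 were called higher in the EEM than in the ED, among them DNAJB1 at 0.50 (SE 0.11, adjusted p = 0.00301) and HSPE1 at 0.44 (SE 0.11, adjusted p = 0.00470), against 8.16% of all genes, and 2 were called lower in IVP embryos in each tissue, against 1.52% in the EEM and 4.95% in the ED. Of 12 hypoxia response genes, 2 were called lower in the EEM than in the ED, close to the 12.8% of all genes, PDK1 at -0.64 (SE 0.17, adjusted p = 0.00949) and PFKFB4 at -0.90 (SE 0.25, adjusted p = 0.0122), and 0 differed by procedure in either tissue at the threshold. Of 9 epiblast markers tested 8 were lower in the EEM, against the same 12.8%, with NANOG at -8.56 (SE 0.35, adjusted p = 1.16e-12) and POU5F1 at -5.40 (SE 0.36, adjusted p = 1.22e-09). Of 17 trophoblast markers 6 were higher and 1, HAND1, was lower, and of 12 hypoblast markers 7 were lower, beside 8.16% of all genes higher and 12.8% lower. In the ED of IVP embryos 1 of 9 epiblast markers was called lower, against 4.95% of all genes, while all 9 had fitted values below 0. NANOG was at -1.34 (adjusted p = 0.0517 in edgeR) and OTX2 at -1.23 (adjusted p = 0.0985). The called marker was POU5F1, with a range of 16.5 to 39.3 CPM beside 27.1 to 227 CPM in IVV embryos.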
